A study of Mus musculus with 4 samples.

Results

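The genes described here encode the erythropoietin receptor and 8 further growth factor receptor chains of myeloid progenitors, namely Epor, Csf2ra, Csf2rb, Csf2rb2, Il3ra, Il5ra, Csf3r, Kit and Flt3. These 9, of 36413 gene names on the array, were taken from its annotation, with every non-control spot that carries such a name, which gave 13 spots of 12 probes among 59305 spots of 55681 probes. Of the 12 probes, 7 probes of 5 genes entered the test. A probe entered where the scanner software called it well above background in both samples with Epo, in both samples without Epo, or in all 4, which 23735 probes met. The rule goes by gene name and not by a measured value.

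RNA was measured in 32D-EpoR cells, by its name a derivative of the mouse myeloid progenitor line 32D with an introduced Epo receptor. There were 2 samples labelled with_Epo_simulation, which received Epo at 10 U/ml, and 2 samples labelled without_Epo_simulation, which received none. Both groups are the same cell line, and both had been washed out of the WEHI-conditioned medium that sustains the line and kept in RPMI with 10% serum before the treatment. The time in Epo, and whether the line is a clone, are not given in the sources used here. The 2 replicates of a group come from 2 independent experiments on cells of different passages, and each sample was read on 1 single-colour array. This small number of arrays limits the precision.

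Erythropoietin acts through a homodimer of its receptor, which carries the kinase JAK2 on its inner side and signals through STAT5. The receptors for interleukin-3, GM-CSF and interleukin-5 each join a ligand-specific alpha chain (Il3ra, Csf2ra, Il5ra) to the common beta chain, the product of Csf2rb. The mouse has a further beta chain from the neighbouring gene Csf2rb2, which pairs with the interleukin-3 alpha chain alone. Csf3r encodes the G-CSF receptor of the granulocyte lineage, and Kit and Flt3 encode the receptor tyrosine kinases for stem cell factor and FLT3 ligand. Conditioned medium of WEHI-3 cells is a customary source of interleukin-3, on which the parental 32D line depends.

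Stretches of 30 of the 60 bases of the probes that gave a signal are shown here, because several values below rest on what a probe can read. Each is given 5′ to 3′ in the sense of its gene, from the deposited files, with its place in the mouse build mm9. Whether these stretches lie in coding or other exon sequence was not analysed here.
Epor, chr9:21763452-21763481, minus strand: gaacgggattggtgaagccatacttaaagt
Il3ra, chr14:15187898-15187927, plus strand: agctcttgaagactgcgaggtgacgcctgt
Csf2rb, the first probe, chr15:78181198-78181227, plus strand: gcagatcaaAtgtCccttggtctCtgttca
Csf2rb2, the first probe, chr15:78113144-78113173, minus strand: gcagatcaaGtgtTccttggtctAtgttca
Csf2rb, the second probe, chr15:78179504-78179533, plus strand: ctatcagcccatgccccaggcgccagccat
Csf2rb2, the second probe, chr15:78114127-78114156, minus strand: taaaattgggcaggctcttgttgctccaag
Csf3r, chr4:125721508-125721537, plus strand: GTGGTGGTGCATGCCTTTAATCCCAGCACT

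The first probes of Csf2rb and Csf2rb2 align without gaps over 42 bases, of which 31 match, and only the last 30 of these are shown. In these like stretches the capitals mark the bases that differ. Counted from the first base shown, and from Csf2rb to Csf2rb2, they are A10G, C14T and C24A. Whether either probe also reads the transcript of the other gene was not tested. The second probes of the 2 genes had no like stretch in any probe of the other gene. In the Csf3r probe the capitals mark the longest run shared with another probe of the array, which spans all 30 bases shown. This stretch resembles the B1 repeat, a short interspersed element that stands in many mouse transcripts.

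Epor was the only receptor probe of the 7 that passed the test, and it was lower with Epo. Its scaled signal, the log2 of the processed intensity after each array was set to the same 75th percentile, was 9.78 and 10.04 with Epo, against 11.35 and 11.66 without Epo. Both samples with Epo stood below both samples without Epo, so the groups did not overlap. How many of all probes tested lay apart like this was not counted, so non-overlap, here and below, adds no support for a change. The group means were 9.91 ± 0.18 with Epo and 11.50 ± 0.22 without Epo (SD, n = 2 each). The change was -1.60 ± 0.18 (SE) on the log2 scale, with a 95% interval of -2.06 to -1.13, which is a 3.02-fold lower signal, and limma gave an adjusted p of 0.00888. Within replicate 1 the difference was -1.56, and within replicate 2 it was -1.63.

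The Epor signal was lower with Epo without scaling between arrays too, by a smaller amount. In the intensities as deposited, before any scaling, its spot read 998 and 1556 units with Epo, against 1899 and 2652 units without Epo. These values do not overlap either, although the 75th percentile of the arrays was higher with Epo, at 347 and 454 units, than without Epo, at 224 and 250 units. Without scaling the change was -0.85, with a limma adjusted p of 0.0238, while the median of all probes tested was 0.71. The smallest limma adjusted p over all probes was 5.7e-106 in that setting, with 2 arrays a group. The p-values of that setting, here and below, are therefore no measure of the spread between replicates. Only 1.51% of the probes tested had a lower change than Epor in the scaled values. The probe was well above background on each array, with a spot mean 57.6 and 91.2 times its local background with Epo and 118 and 156 times without Epo. Whether it also reads the transcript of the introduced receptor is not known.

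**Figure D1:**
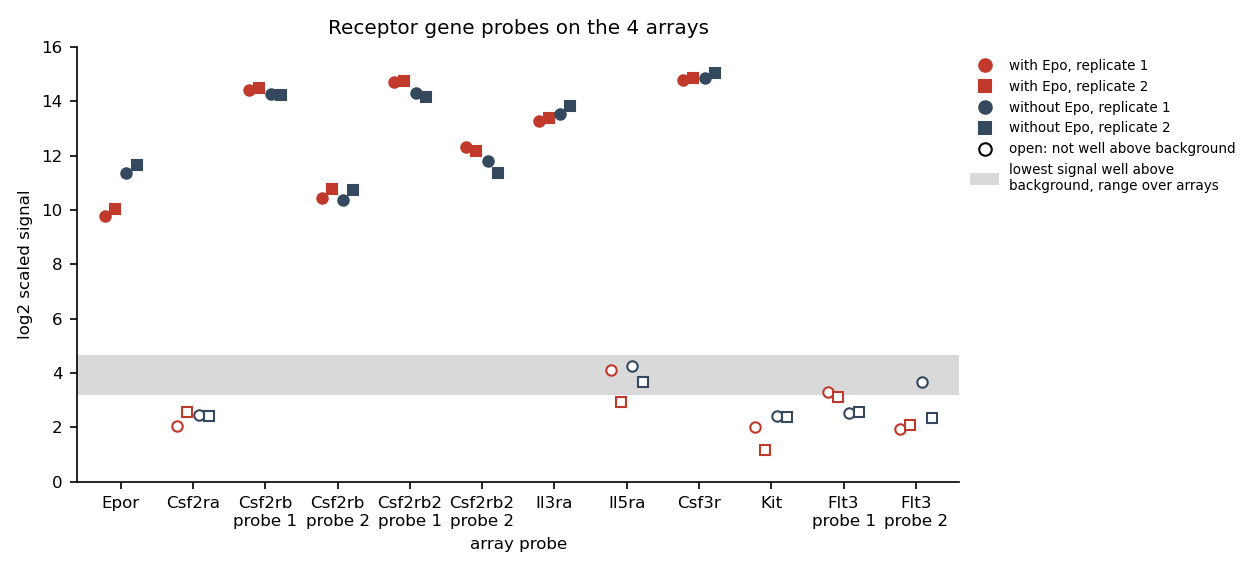
Log2 scaled signal (vertical axis) of the 12 receptor probes (horizontal axis), with the 2 arrays with Epo in red to the left of the 2 arrays without Epo in dark blue. Circles are replicate 1 and squares replicate 2, open symbols were not well above background, and the grey band spans the lowest signal well above background on the 4 arrays. The Epor points with Epo, at 9.78 and 10.04, lie below those without Epo, at 11.35 and 11.66, and the probes of Csf2ra, Il5ra, Kit and Flt3 have open symbols on each array.

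The calls among the receptors can be read against those of all probes. Of the 23735 probes tested, limma called 25.9%, with 13.0% higher and 12.9% lower with Epo. Among the 7 receptor probes 0 were called higher and 1 was called lower, and at an unadjusted p under 0.05 limma had 2 higher and 1 lower, where 41.8% of all probes tested passed that level. The median change of all probes tested was -0.040. Every change is measured from the array percentile used. The split was 3084 higher against 3059 lower, but 2498 against 4342 with the percentile of detected probes alone, and 11329 against 477 on unscaled values. With the replicate number as a block the calls were 4711 higher and 4876 lower. Without any 1 array in turn they were 1250 to 2678 higher and 1205 to 2314 lower, fewest in both directions without replicate 1 of the group with Epo.

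The beta chain genes did not pass the test, and the 2 probes of Csf2rb2 were close to it. The first Csf2rb2 probe had 14.70 and 14.74 with Epo, against 14.30 and 14.17 without Epo. The second had 12.32 and 12.16 with Epo, against 11.80 and 11.38 without Epo. In both probes each sample with Epo stood above each sample without Epo, which 2 samples a group can easily show without a change. The change of the first was 0.49 ± 0.12 (SE, 95% interval 0.16 to 0.81), a 1.40-fold ratio (limma adjusted p 0.0501). That of the second was 0.65 ± 0.19 (SE, 95% interval 0.16 to 1.15), a 1.57-fold ratio (limma adjusted p 0.0657). With the replicate number as a block, which compares samples of the same number, both passed, with limma adjusted p of 0.0371 and 0.0306. In that fit limma called 4711 of all 23735 probes higher and 4876 lower, against 3084 and 3059 without the block.

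Csf2rb, the common beta chain, showed smaller differences. Its first probe had 14.40 and 14.50 with Epo, against 14.27 and 14.23 without Epo, and the groups did not overlap. The change was 0.20 ± 0.12 (SE, 95% interval -0.11 to 0.52), with a limma adjusted p of 0.265. Its second probe had 10.43 and 10.77 with Epo, against 10.38 and 10.73 without Epo, and here the groups overlapped. That change was 0.048 ± 0.20 (SE, 95% interval -0.47 to 0.57), with a limma adjusted p of 0.870. It ran from -0.12 to 0.22 with an array left out, so its sign turned. It was negative without replicate 2 of the samples with Epo or without replicate 1 of those without Epo. With all arrays kept it was also negative with the percentile of detected probes, at -0.077, and with quantile normalization, at -0.046. For both probes replicate 2 was above replicate 1 with Epo, and for the second probe also without Epo.

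The 2 beta chain genes can be set against each other within an array, where the scaling cancels. Between the first probes, the log2 ratio of Csf2rb2 to Csf2rb changed by 0.27 in replicate 1 and by 0.30 in replicate 2. Between the second probes it changed by 0.47 and 0.74. The mean change of the ratio was positive for each of the 4 pairings of probes, from 0.28 to 0.60, as a description of 2 experiments with no test. The 2 probes of Csf2rb2 themselves parted by -0.12 and -0.21 in this measure, and those of Csf2rb by 0.080 and 0.23.

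Without scaling between arrays all 4 beta chain probes were called higher, as were 11329 of all 23735 probes, with 477 called lower. The changes were then 0.95 and 0.79 for Csf2rb and 1.23 and 1.40 for Csf2rb2, with limma adjusted p of 0.0115, 0.0345, 0.000895 and 0.000146. They exceeded the median of all probes in that setting, 0.71, by little for Csf2rb and by more for Csf2rb2. The call for Csf2rb2 moved with other settings as well. The first probe passed in 6 of 14 alternatives, with limma adjusted p from 0.000895 to 0.217, and the second in 5 of 13, from 0.000146 to 0.226. With replicate 1 of the untreated samples left out, the second probe changed by 0.86, with a limma adjusted p of 0.0377. Epor passed in 13 of 14, with changes from -1.75 to -0.85, and missed the threshold where dim probes were kept (limma adjusted p 0.146). In the scaled values 81.1% of all probes tested had a lower change than the first Csf2rb2 probe, and 86.4% a lower change than the second. For the Csf2rb probes these shares were 67.6% and 56.7%.

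**Figure D2:**
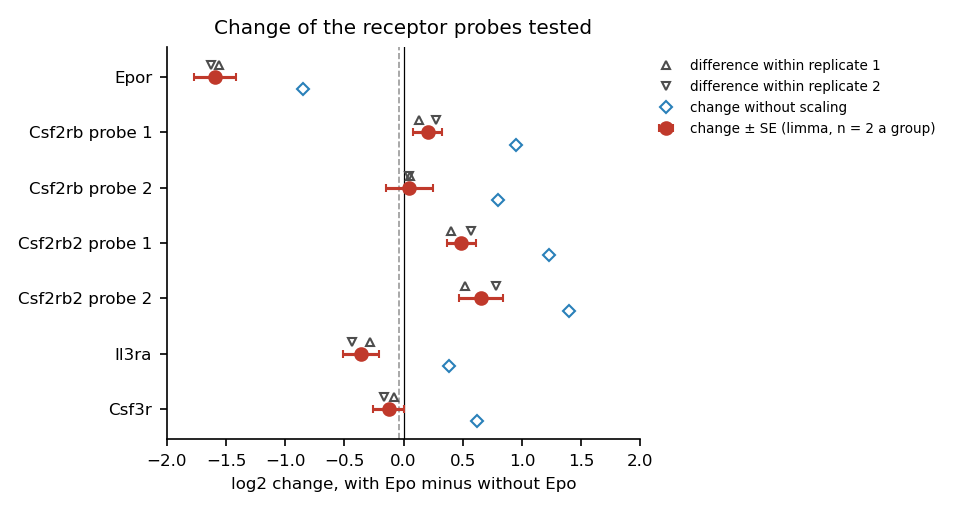
Log2 change, with Epo minus without Epo (horizontal axis), of the 7 receptor probes tested (vertical axis): red points with bars are the limma change ± SE from 2 samples a group, triangles the difference within each replicate number, and blue diamonds the change without scaling. The dashed line is the median change of all probes, -0.040. Epor lies at -1.60, and of the other 6 probes those of Csf2rb2 lie furthest from 0, at 0.49 and 0.65.

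Il3ra, the interleukin-3 alpha chain, gave a negative change that did not pass. Its probe had 13.26 and 13.38 with Epo, against 13.55 and 13.82 without Epo. Each sample with Epo stood below each sample without Epo. The change was -0.36 ± 0.15 (SE, 95% interval -0.76 to 0.038), with a limma adjusted p of 0.146. With an array left out it ran from -0.49, without replicate 1 of the samples without Epo, to -0.22, without replicate 2 of them. Without scaling it was 0.39, below the median of all probes. Thus the probes of the interleukin-3 receptor chains had scaled changes of unlike sign, with Il3ra below 0 and Csf2rb2 and Csf2rb above it. The second Csf2rb probe lay at only 0.048 and turned negative under some other scalings. Limma called none of these probes in the reported setting.

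Csf3r was bright on all arrays, with a reservation about its probe. It had 14.78 and 14.87 with Epo, against 14.86 and 15.04 without Epo, and the groups overlapped. The change was -0.12 ± 0.13 (SE, 95% interval -0.47 to 0.22), with a limma adjusted p of 0.514. At least 15 consecutive bases of this probe recur in 10 other probes of the array. Of these 10, 8 were well above background on all 4 arrays, against 38.5% of all 55681 probes. The 9 of them that were tested had changes from -0.51 to 0.13, with a median of -0.078, and limma called 0 of the 9, with 1 at an unadjusted p under 0.05.

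The probe with the longest shared run carries the name Gm13241. It shares the 30 bases printed above, and had 15.23 and 15.35 with Epo, against 15.27 and 15.66 without Epo. Its change was -0.18 ± 0.18 (SE), with a limma adjusted p of 0.496. How much of the signal under the name Csf3r comes from Csf3r transcripts was not tested. Of the other 11 receptor probes, the first Csf2rb probe and the second Csf2rb2 probe shared 15 bases with 1 other probe each, and the remaining 9 shared no such run.

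Csf2ra, Il5ra, Kit and Flt3 were not well above background on any array. The Csf2ra probe, for the GM-CSF alpha chain, read 4.71 and 8.72 intensity units with Epo, against 3.98 and 4.40 units without Epo. Kit, measured by 2 spots of 1 probe, averaged 4.56 and 3.32 units with Epo and 3.93 and 4.30 units without Epo. On the scaled log2 values, the dimmest probes well above background lay at 4.20 and 3.24 with Epo and at 4.62 and 4.61 without Epo, and each spot of these 4 genes lay below that level on its own array.

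The Il5ra probe, for the interleukin-5 alpha chain, read 19.4 and 11.3 units with Epo, against 13.9 and 10.3 units without Epo. Its spots differed from background by the scanner software's significance flag on all 4 arrays, but failed the stricter one. The first Flt3 probe read 11.1 and 12.8 units with Epo, against 4.18 and 4.81 units without Epo, and the second read 4.39 and 6.34 units with Epo, against 9.33 and 4.11 units without Epo. Thus the groups lay apart in the first Flt3 probe and overlapped in the second, all below the limit, and no fold is given for any of these 4 genes. A low or absent signal here sets no exact level, and in bulk RNA fewer cells with a transcript and less of it per cell cannot be told apart.

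**Figure D3:**
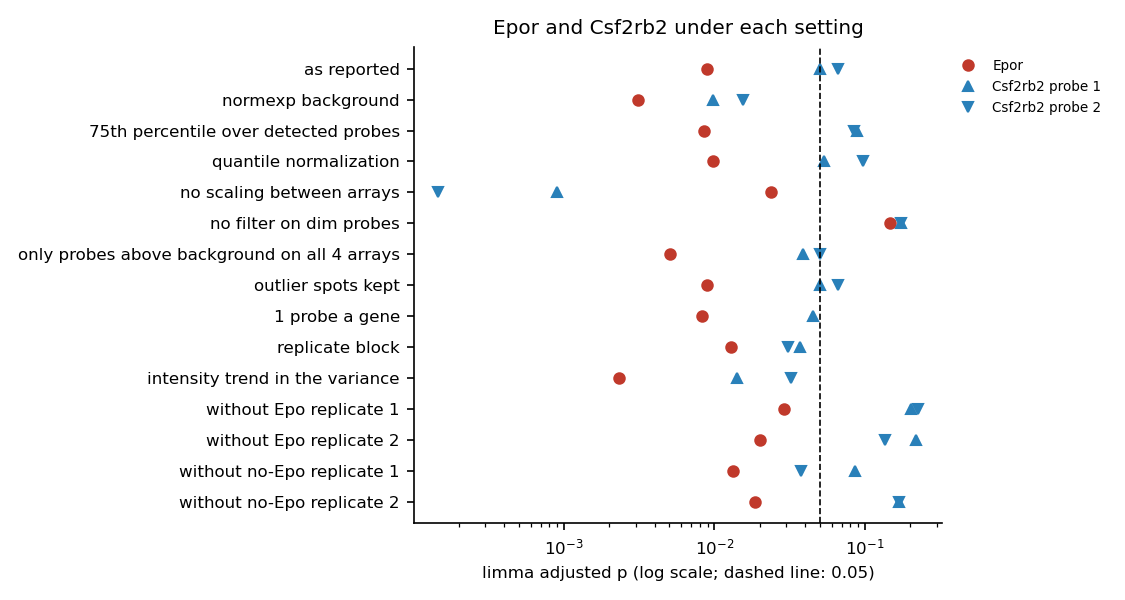
Limma adjusted p (horizontal axis, log scale) of the Epor probe (circles) and the 2 Csf2rb2 probes (triangles) under the reported setting and each alternative (vertical axis), with a dashed line at 0.05. Epor lies left of the line in all settings but the 1 without a filter on dim probes, at 0.146, and the Csf2rb2 probes lie on either side.

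**Figure D4:**
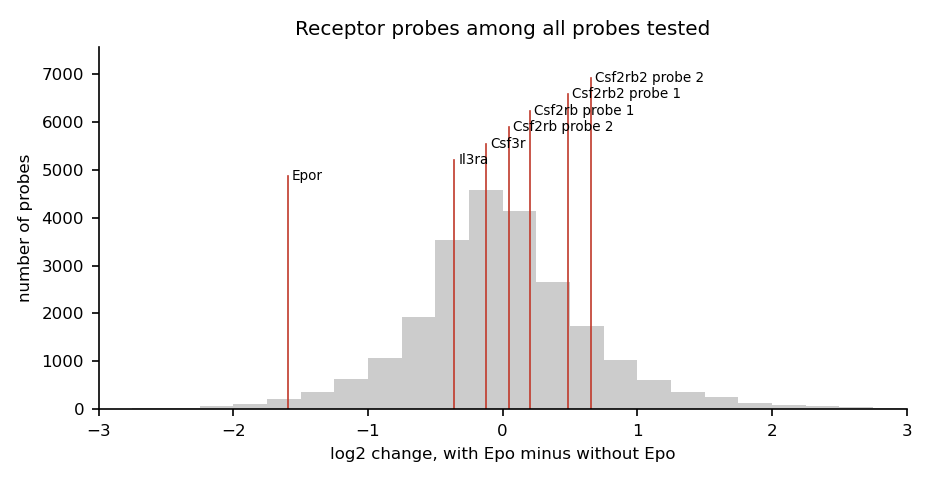
Number of probes (vertical axis) by log2 change, with Epo minus without Epo (horizontal axis), for the 23735 probes tested, in grey bins, with a red line at each of the 7 receptor probes. Epor lies in the lower tail, where 1.51% of probes are lower, and the other 6 lie between -0.36 and 0.65.

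The ligands of these receptors were looked at next, from a written list of 7. Epo, Csf2, Il3, Il5, Csf3 and Kitl were not well above background on any array. Flt3l, which encodes the ligand of FLT3, was the 1 tested, and it rose. It had 13.07 and 12.59 with Epo, against 11.94 and 11.73 without Epo, a change of 0.995 ± 0.21 (SE) with a limma adjusted p of 0.0322. Its second probe also rose, by 1.14 ± 0.12 (SE) with a limma adjusted p of 0.00871. The call of the first was lost without replicate 1 of the group with Epo (limma adjusted p 0.0995) or when replicate 2 without Epo was left out (0.0824).

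Among 24 genes that act next to the receptors, 23 were tested, of which 4 rose, 2 fell and 17 did not pass, with a median change of 0.0023 beside -0.040 for all probes, of which 25.9% were called. Without scaling 12 of the 23 were called higher and 0 lower, where 11329 of all 23735 probes were called higher and 477 lower. With the percentile of detected probes the counts were 2 higher and 3 lower, with quantile normalization 2 and 1, and with any 1 array left out 2 and 0. Pik3cd, a catalytic subunit of PI3 kinase, rose by 1.36 ± 0.19 (SE, limma adjusted p 0.0130), and Pik3cg, another, by 0.61 ± 0.15 (SE, limma adjusted p 0.0466), and the other tested probes of both genes were called higher too. The adaptor genes Gab2 and Grb2 fell by 0.73 and 0.46 (limma adjusted p 0.0381 and 0.0493). A second Grb2 probe had -0.22 and was not called (limma adjusted p 0.277). The call of Gab2 was lost with the replicate number as a block (limma adjusted p 0.0524) and with quantile normalization (0.0818). Without scaling Gab2 and Grb2 lay at 0.017 and 0.28. The other rises were the kinase gene Btk, at 0.51, and the exchange factor gene Sos1, which was at least 2.14-fold higher with Epo since it was not well above background without Epo. Btk and Sos1 were named after their values were seen. The calls of Pik3cg and Grb2 were lost without any 1 of the 4 arrays, with limma adjusted p up to 0.206 and 0.242, and that of Gab2 likewise, up to 0.163.

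A list of 16 genes of receptor feedback and turnover, with inhibitors of STAT proteins among them, was tested in full. Of these 16 genes, 6 rose, 2 fell and 8 did not pass, with a median of -0.022. Among all probes 13.0% were called higher and 12.9% lower. Without scaling 8 were called higher and 0 lower, where 11329 of all 23735 probes were called higher and 477 lower. Socs1 and Cish, which encode feedback inhibitors of cytokine receptors, rose by 6.60 ± 0.29 and 3.42 ± 0.12 (SE), each with a limma adjusted p of 0.00366. Further rises were those of Socs3, Socs2, Cbl and Ptpn1, at 2.68, 1.55, 0.61 and 0.61, genes named after their values were seen. Pias3, an inhibitor of STAT proteins, fell by 1.07 ± 0.24 (SE, limma adjusted p 0.0384). Its second probe, at -1.27, was not called (limma adjusted p 0.167), and the call of the first was lost with the replicate number as a block (0.0603). Inpp5d, the lipid phosphatase SHIP, fell by 0.78 ± 0.12 (SE, limma adjusted p 0.0151). Without scaling neither fall was called (limma adjusted p 0.386 for Pias3 and 0.930 for Inpp5d). The call of Pias3 was also lost without replicate 2 of either group (limma adjusted p 0.0949 and 0.0942), and that of Inpp5d without either array of the group with Epo (0.0753 and 0.0799).

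Probes of the leptin and interleukin-6 receptor genes fell among the growth factor receptors outside the 9. Of 15 on the list 9 were tested, of which 0 rose, 3 fell and 6 did not pass, with a median of -0.38, or 0.37 without scaling, where 25.9% of all probes were called. Without scaling 2 were called higher and 1, Lepr, lower, where 11329 of all 23735 probes were called higher and 477 lower. With the replicate number as a block 5 were called lower, as were 4876 of all 23735 probes. Lepr, the leptin receptor, fell by 1.75 ± 0.18 (SE, limma adjusted p 0.00792), with 8.42 and 8.16 with Epo, against 10.20 and 9.89 without Epo. This rests on 1 of 4 Lepr probes, since the other 3 did not enter the test. Those 3 lay near background, with mean scaled signals of 2.14, 2.17 and 3.28. Which Lepr transcripts the tested probe reads was not tested. Il6ra, the interleukin-6 alpha chain, fell by 1.42 ± 0.12 (SE, limma adjusted p 0.00658), with 7.31 and 7.40 with Epo, against 8.83 and 8.73 without Epo. The third was Csf1r, the M-CSF receptor, at -0.79, named after its value was seen, and 1 of its 3 probes was not called, at -0.31 (limma adjusted p 0.140). At an unadjusted p under 0.05 limma had 0 higher and 5 lower in this list, a level that 41.8% of all probes passed. The call of Il6ra was lost without scaling (limma adjusted p 0.0720).

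**Figure D5:**
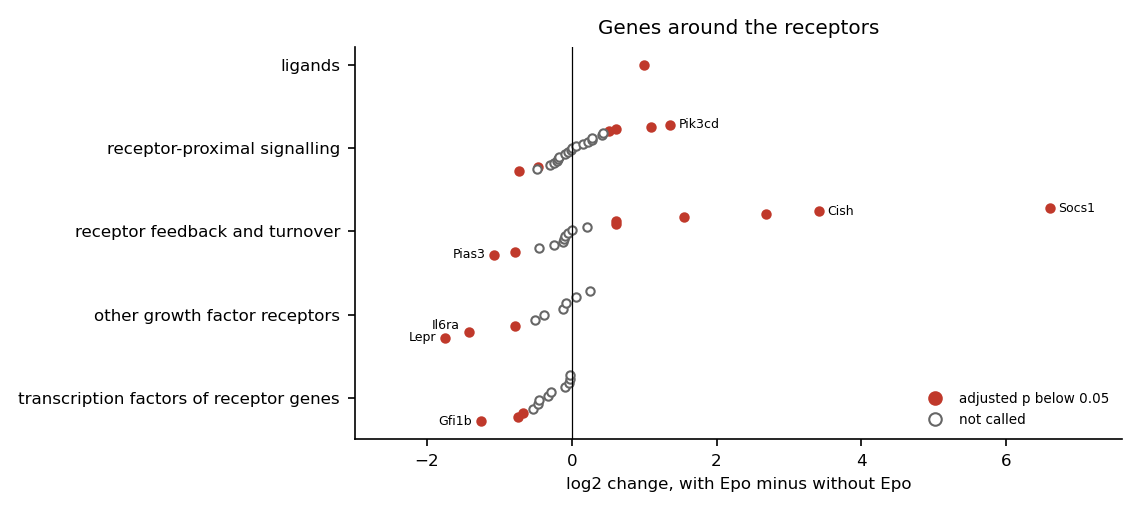
Log2 change, with Epo minus without Epo (horizontal axis), of the tested genes of 5 lists around the receptors (vertical axis), with genes past the limma threshold in red and the others open, spread vertically by rank within a list. Genes named by the rule with a change beyond 1 in size are labelled. Socs1 lies furthest out, at 6.60, and Lepr, by its only tested probe, lowest, at -1.75.

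Of 12 transcription factor genes known to act on such receptor genes, all 12 were tested, of which 0 rose, 3 fell and 9 did not pass, with a median of -0.40, or 0.35 without scaling, where 25.9% of all probes were called. Called lower were 0 without scaling, 5 with the percentile of detected probes, 5 with an intensity trend and 7 with the replicate number as a block. Of all 23735 probes tested, 477, 4342, 3758 and 4876 were called lower in these settings, in the same order. With an array left out 1 was called lower, or 3 without replicate 1 of the samples without Epo. Gfi1b, which encodes a transcriptional repressor that acts within the erythroid and megakaryocytic lineages, fell by 1.25 ± 0.12 (SE, limma adjusted p 0.00711). Cebpa, a factor of granulocyte development, fell by 0.74 ± 0.15 (SE, limma adjusted p 0.0292) and lay at 0.0097 without scaling. The third was Gata1, which encodes a factor of red cell and mast cell genes, at -0.68, named after its value was seen. At an unadjusted p under 0.05 limma had 0 higher and 6 lower, a level that 41.8% of all probes passed. The 6 include Runx1 by its brighter probe, at -0.47, while its other probe had 0.46 (unadjusted limma p 0.0147). Without scaling the call of Gfi1b was lost (limma adjusted p 0.178). The call of Cebpa was lost without either array of the group with Epo (limma adjusted p 0.138 and 0.0730) or when replicate 2 without Epo was left out (0.0884).

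The genes most like Epor over the 4 arrays were Art4, Apc2 and Degs2. Likeness was the root mean square difference between profiles centred on their own mean, over 14056 candidate probes with a gene symbol that were well above background on all 4 arrays. It was 0.051 for Art4, 0.051 for Apc2 and 0.067 for Degs2, on the log2 scale. Their changes were -1.63, -1.51 and -1.61. For the first Csf2rb probe the nearest were Klrb1f, Magt1 and Stat6, with differences of 0.0084, 0.0117 and 0.0119 and changes of 0.19, 0.20 and 0.22. These 4 arrays hold 2 conditions, so such ranks describe these samples only.

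The labelled cell type was checked on written markers. Of 9 myeloid progenitor markers, which include Mpo, Prtn3, Elane and Ctsg, 9 were tested and 8 were well above background on all 4 arrays, the other being Cd34, and 1, Cebpa, fell. Their summed signal was 17.02 to 17.15 with Epo and 17.25 to 17.28 without Epo on the log2 scale. The sums, here and below, add linear signals, so the brightest markers weigh most. Here this is Ctsg, at 16.40 and 16.57 with Epo and 16.72 and 16.75 without Epo. Cd34, Ptprc and Ms4a3 had positive changes that were not called, and the other myeloid progenitor markers negative ones. Of 8 erythroid markers 2 were tested and limma called 0 of them, with 0 at an unadjusted p under 0.05, and Alas2 was not well above background on any array. The summed signal of the erythroid markers was 10.23 to 10.55 with Epo and 10.35 to 10.67 without Epo. Of 7 lymphoid markers 3 were tested and all 3, Cd3e, Cd4 and Cd79b, fell, with a summed signal of 10.32 to 10.46 with Epo and 11.23 to 11.27 without Epo. The sums ran from 11.62 to 11.90 with Epo and 12.19 to 12.38 without Epo for mast cell and basophil markers (4 of 8 tested, Hdc fell), and from 12.14 to 12.23 with Epo and 11.82 to 11.85 without Epo for macrophage markers (4 of 6 tested, Adgre1 rose and Csf1r fell). For stromal markers (2 of 6 tested, Pdgfrb fell) they were 9.15 to 9.25 with Epo and 9.73 to 9.86 without Epo. Of all probes tested, 13.0% were called higher and 12.9% lower. The marker calls and sums rest on the scaling between arrays. Without it the median change of all probes was 0.71, and the change of Cebpa was 0.0097. What part the shifts of the markers have in the receptor values was not tested.

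For context, RefSeq windows of GRCm38.p6 from 250 bases before to 50 bases after the gene start were searched for 4 short motifs on both strands. A window was found for 8 of the 9 genes, and not for Csf2rb. The motifs were TTCNNNGAA, bound by STAT factors, GATAA, the core bound by GATA factors, CCGCCC, the GC box, and GAGGAA, a core bound by ETS factors such as PU.1. TTCNNNGAA occurred in 1 of the 8 genes, Csf2rb2, and in 8.30% of all 32851 windows. GATAA occurred in 3 of the 8, among them Epor and Csf2rb2, and in 25.4% of all windows. CCGCCC occurred in 4 of the 8 and in 35.7% of all windows, and GAGGAA in 5 of the 8 and in 28.3%.

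The windows of Epor, the gene that fell, and of Csf2rb2, the one nearest to a rise, are shown with all matches in capitals.
Epor, GRCm38.p6, chr9:21963527-21963826, minus strand: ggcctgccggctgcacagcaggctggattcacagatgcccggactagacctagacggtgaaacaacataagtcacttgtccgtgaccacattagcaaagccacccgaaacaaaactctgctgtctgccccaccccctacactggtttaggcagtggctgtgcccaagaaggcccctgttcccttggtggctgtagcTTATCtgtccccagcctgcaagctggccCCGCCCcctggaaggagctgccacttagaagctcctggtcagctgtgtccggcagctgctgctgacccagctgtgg
Csf2rb2, GRCm38.p6, chr15:78305672-78305971, minus strand: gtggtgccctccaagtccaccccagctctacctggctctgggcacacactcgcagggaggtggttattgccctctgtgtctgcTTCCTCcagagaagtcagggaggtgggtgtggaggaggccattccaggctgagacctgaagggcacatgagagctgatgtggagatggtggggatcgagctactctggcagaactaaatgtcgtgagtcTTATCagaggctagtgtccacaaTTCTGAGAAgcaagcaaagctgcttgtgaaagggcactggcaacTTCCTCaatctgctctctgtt

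In Epor the match to GATAA, on the opposite strand, begins 54 bases before the gene start, and the match to CCGCCC begins 26 bases before it. In Csf2rb2 the match to TTCNNNGAA begins 15 bases before the gene start and that to GATAA, again on the opposite strand, 38 bases before it. The matches to GAGGAA, also on the opposite strand, begin 167 bases before and 29 bases after the gene start. No binding was measured here, and a match of letters is no site.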

How the data were processed

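Total RNA of 4 samples, 2 with Epo and 2 without, was hybridised to single-colour mouse arrays of 62976 spots on 1 slide. The deposited values are processed intensities, which per the file headers were background-subtracted by Feature Extraction 10.1.1.1, and the submitters' processing notes name limma. The log2 of each intensity was set to a common 75th percentile per array, spots of a probe were averaged, and probes detected above background by both samples of a group were tested by limma (version 3.58.1, R 4.3.3, moderated two-sided test, group as the only term, Benjamini-Hochberg over 23735 probes, threshold 0.05). The 95% intervals use the fit's 4.578 degrees of freedom, of which 2 are residual. Symbols were matched by accession to RefSeq for 26413 probes. A gene with several probes on a list stands by its brightest tested probe. From each list up to 2 genes with the largest rise and 2 with the largest fall past the threshold were named, if both replicates changed alike and the change was more than a bound.

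Replicates are described as 2 independent experiments, and the replicate numbers were read as these experiments, which the labels do not state for each sample. Samples of the same number deviated together (correlation 0.378 over probes), and profiles correlated at 0.995 with Epo, 0.992 without Epo, and 0.969 to 0.974 between the groups. The alternatives were normexp background, other scalings and none, other filters, outlier spots kept, 1 probe a gene, the replicate block, an intensity trend, and each array left out. The genes and lists were chosen with earlier results of these data known. The fit was also run on simulated data with independent noise drawn from its own estimated variance. Such data lack the shared deviation of same-numbered samples, so that run cannot show that the p-values hold here.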

Additional observations from a re-analysis of the deposited data

How the results depend on the processing

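The reported counts were 0 receptor probes higher and 1 lower, with 3084 probes higher and 3059 lower in all. Receptor probes called higher numbered 2 with normexp background, 4 without scaling, 1 with probes above background on all 4 arrays, 1 with 1 probe a gene, 2 with the replicate block and 2 with an intensity trend, and 0 to 1 with an array left out. With no filter on dim probes 0 receptor probes were called lower, and limma called 0 probes higher and 0 lower in all, although 9494 of 55672 had an unadjusted p under 0.05. All probes called higher numbered 11329 without scaling, 4711 with the replicate block and 1250 to 2678 with an array left out. Those called lower numbered 4850 with normexp background, 477 without scaling, 4876 with the replicate block and 1205 to 2314 with an array left out. Without scaling the median change was 0.71, and the signs of Gab2, Grb2 and Cebpa turned, to 0.017, 0.28 and 0.0097, and those of Il3ra and Csf3r, not called in either setting, to 0.39 and 0.62. The replicate block raised the receptor calls by the 2 Csf2rb2 probes and kept that of Epor, and the calls of Gab2 and Pias3 were lost with it. With 2 arrays a group, limits are set by the small number of samples, and Csf2ra, Il5ra, Kit and Flt3 lay too near background for a fold.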
